A study of Mus musculus with 9 samples.

Results

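The genes described here encode the proteins of the mouse mitochondrial ribosome, taken as every gene whose annotated symbol is Mrpl or Mrps followed by a number. Of 18193 genes with a probe set that the array annotation gives to 1 gene alone, 76 met this rule, and the brightest of a gene's probe sets, by its mean over the 9 arrays, stood for the gene. They comprise 49 proteins of the large subunit, among them Mrps18a and Mrps30 in spite of their names, and 26 of the small subunit. The remaining gene, Mrps36, carries a ribosomal name but encodes a component of the oxoglutarate dehydrogenase complex of the citric acid cycle. Mrpl30 and Mrpl53 lie only on probe sets shared with another gene and were not analysed here.

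RNA came from Lin-Sca1+cKit+ (LSK) cells, the marrow fraction that holds haematopoietic stem cells and multipotent progenitors. Lineage-negative C57BL/6 marrow was prestimulated with cytokines, transduced with retroviral vectors and injected into C57BL/6 mice irradiated with 10 Gy, and LSK cells were sorted 8 weeks after transplantation. The GFP-positive group (n = 3) holds LSK cells that carry the marker of the dnMPL vector, the GFP-negative group (n = 3) holds LSK cells of dnMPL mice that lack the marker, and the control group (n = 3) holds LSK cells of mice that were given wild-type LSK cells. Each array held pooled marrow of 2 to 5 mice. The labels do not say which vector the control cells carried, which promoter drove the transgene, or whether same-numbered fractions share their mice, so effects of transduction and of dnMPL cannot be told apart against control. Because nothing ties the pools to separate experiments, p-values measure the spread between these pools.

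The mitochondrial ribosome translates the few mRNAs of the mitochondrial genome, which encode core subunits of the respiratory chain and of ATP synthase. All of its proteins are made in the cytosol from nuclear genes and imported into mitochondria, where they are assembled on ribosomal RNAs transcribed from mitochondrial DNA. Haematopoietic stem cells are known for their reliance on low mitochondrial activity at rest.

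Values are log2 RMA values, so a difference of 1 is 2-fold. Array medians over all probe sets lay between 4.52 and 4.64, and arrays correlated with each other at 0.887 to 0.971. Kit and Cd34 and 3 other genes of the LSK phenotype were measured, of which 4 or 5 were above the level filter (4.03) on every array, while Ly6a, which encodes Sca1, was not analysed here. Summed granulocyte markers measured 14.8 to 15.7 in GFP-positive, 14.1 to 15.3 in GFP-negative and 12.4 to 14.3 in control samples over 10 genes. Summed erythroid markers (7 genes) measured 10.3 to 10.4 in GFP-positive, 9.86 to 10.2 in GFP-negative and 7.54 to 8.50 in control samples. Monocyte markers, of which 4 to 5 of 6 were above the filter, ran from 7.75 to 11.2 in GFP-positive, 8.95 to 10.0 in GFP-negative and 6.94 to 7.98 in control samples. B cell markers (6 genes) overlapped between all groups, at 9.30 to 10.6 in GFP-positive, 8.45 to 9.68 in GFP-negative and 7.20 to 10.2 in control samples, and of 3 T cell markers 0 to 2 were above the filter. Granulocyte, erythroid and monocyte markers thus tended to be higher in dnMPL than in control samples, their part in the results was not tested, and in sorted bulk samples fewer cells of a type and less RNA per cell cannot be told apart.

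The mitochondrial ribosome genes passed no test in any comparison. They did share a pattern over the single arrays (plot of deviations by array). On GFP-positive 3, 73 of the 76 genes stood above their own mean over the 9 arrays, with a median deviation of 0.41. Control 3 showed the opposite, with 13 genes above their mean and a median deviation of -0.60. Over all genes tested the median deviation lay between -0.05 and 0.05 on every array, which quantile normalization in RMA brings about. The median absolute deviation over all genes was 0.43 on control 3 and 0.42 on GFP-positive 2, against 0.24 to 0.29 on the other arrays, so these arrays stood apart for other genes too.

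**Figure D1:**
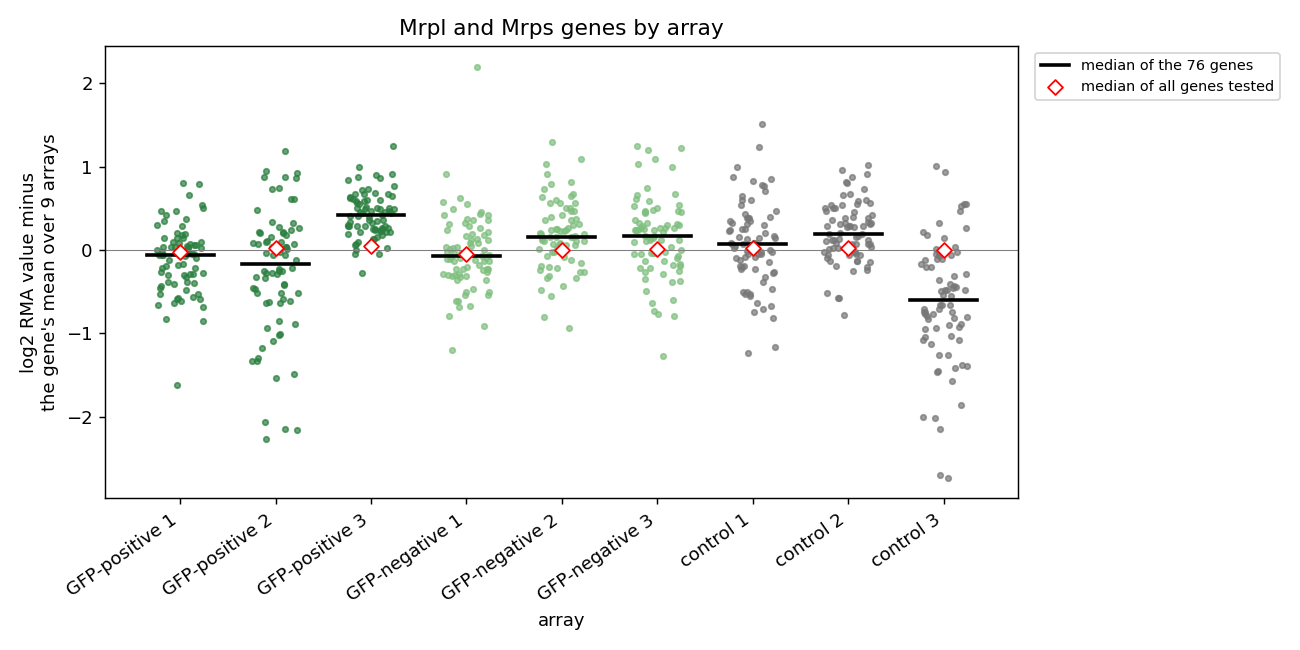
Deviation of each of the 76 genes from its own mean (log2 RMA value, y axis) on each array (x axis). Each point is 1 gene, black bars are the medians of the 76 genes and red diamonds the medians of all genes tested; the points of GFP-positive 3 sit almost all above 0 (median 0.41) and those of control 3 mostly below it (median -0.60).

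The other 7 arrays had median deviations of -0.17 to 0.19 for these genes. Of the 76 genes, 32 had their lowest value of the 9 arrays on control 3 and 20 on GFP-positive 2, whereas 18.9% and 18.1% of all genes tested had theirs there. On control 3, 17 genes lay 1 or more below both other controls, which is 22.4% of the 76 against 11.5% of all genes tested. They include Mrpl45, which ties the ribosome to the inner membrane, Mrpl41, Mrpl36, Mrps5 and Mrps30. Mrps22 and Mrpl37 went the other way and lay 1 or more above the other controls. On GFP-positive 2, 11 genes (14.5%, against 11.0% of all genes) lay as far below both other GFP-positive arrays, all of them from the large subunit, and on GFP-positive 3, 6 genes lay as far above (7.89%, against 4.14%).

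Other measures moved with these arrays. The Gapdh 3′ probe set exceeded the 5′ probe set by 3.87 on control 3 and by 3.22 on GFP-positive 2, against 2.47 on GFP-positive 3 and 2.68 to 2.89 on the other arrays. The Actb 3′ minus 5′ value was -0.71 on control 3 and -0.56 on GFP-positive 3, within the -0.72 to -0.55 of the arrays other than GFP-positive 2, where it was -1.13. Genes of G2/M and mitosis had a median deviation of -1.09 on control 3 and of -0.05 to 0.34 elsewhere. When limma estimated a weight for each array, control 3 received 0.364 and GFP-positive 2 received 0.369, the lowest of the 9, and GFP-positive 1 the highest at 2.38. The part of RNA quality or of cycling cells in the shift was not tested.

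**Figure D2:**
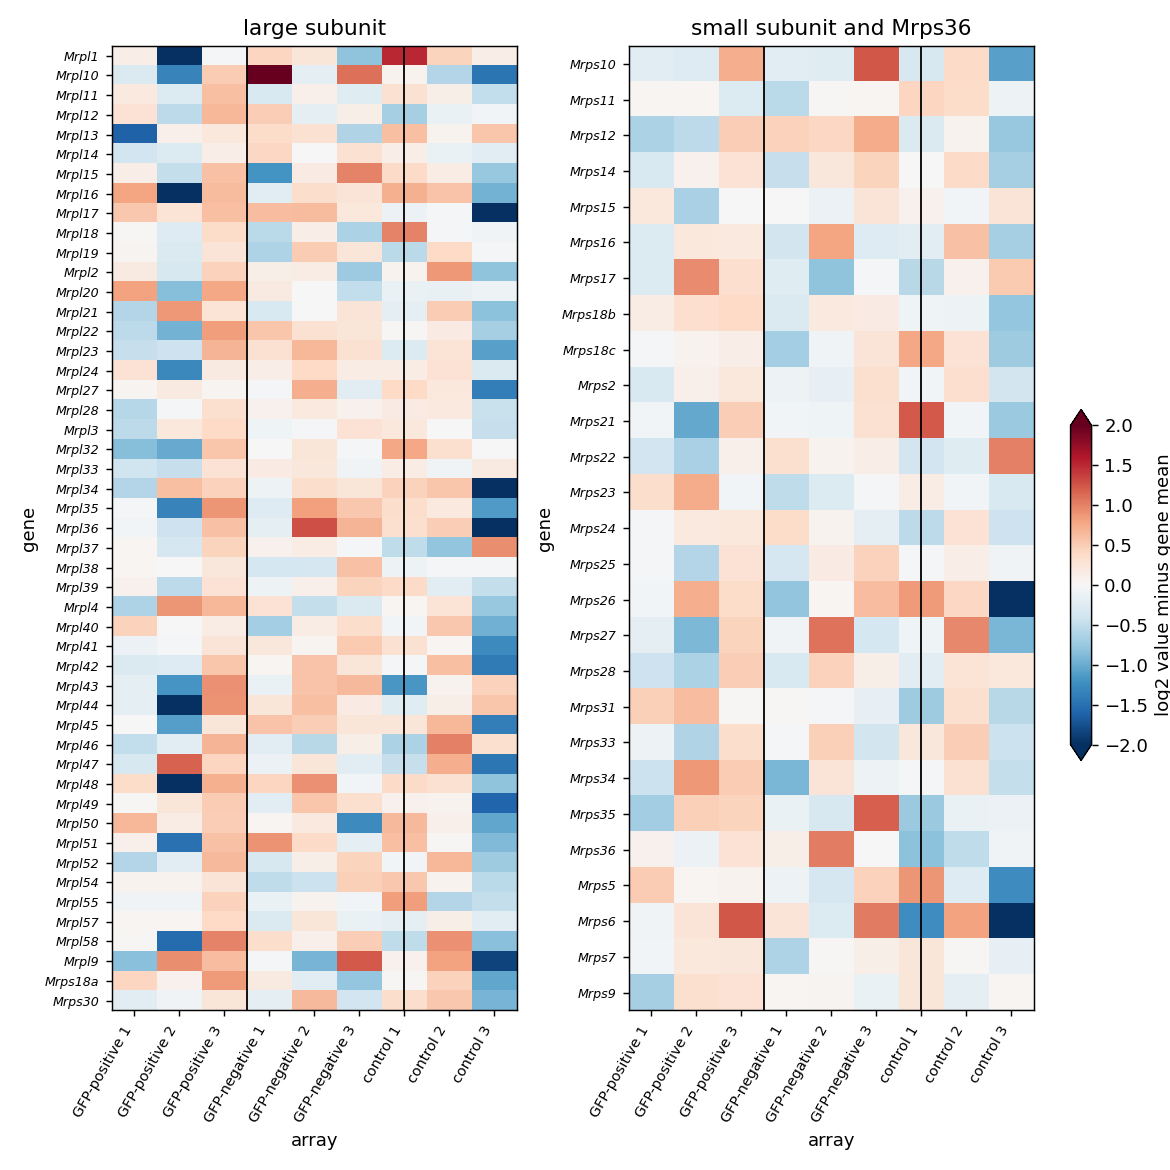
Deviation from the gene's mean over the 9 arrays (log2, colour, clipped at -2 and 2) for each gene (rows) on each array (columns). The large subunit is on the left and the small subunit and Mrps36 on the right. Columns run GFP-positive, GFP-negative, control. The vertical lines are a rough guide and need not fall on the group boundaries. Control 3 is blue and GFP-positive 3 red across both subunits, while GFP-positive 2 is dark blue for large subunit genes such as Mrpl1, Mrpl16 and Mrpl44.

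The promoters of these genes were read from RefSeq windows (GRCm38.p6) of 300 bases, most of them upstream of the gene start, available for 67 of the 76. Motif letters were searched on both strands. A gene was counted if any of its windows held a match, as the 67 genes had 73 windows. The NRF1 motif (GCGC, any base, then TGCGC) was found for 12 of 67 genes (17.9%, against 7.17% of 17491 protein-coding genes). The ETS motif CCGGAAG, read by GABP among others, was found for 25 (37.3%, against 12.9%) and the YY1 motif AAGATGGCG for 8 (11.9%, against 2.14%). At least 1 of these motifs was found for 39 genes (58.2%, against 20.0%), whereas GGGCGG was about as frequent as in other genes (50.7%, against 49.2%), and likewise CCAAT (38.8%, against 42.3%) and the E-box CACGTG (7.46%, against 8.91%). A match is a description of letters, not of binding.

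The 120 bases before the start are shown for 5 genes described below, 5′ to 3′ on the gene's strand, with NRF1 matches (Mrpl17, Mrpl12, Mrpl45) and the ETS match (Mrpl22) in capitals; the stretch of Mrps12 holds no NRF1, ETS or YY1 match, although 1 ETS match lies elsewhere in its window.
Mrpl17 (large subunit, chr7:105811088-105811207, minus strand): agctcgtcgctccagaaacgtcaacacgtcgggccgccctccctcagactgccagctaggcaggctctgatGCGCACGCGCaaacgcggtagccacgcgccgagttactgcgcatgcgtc
Mrpl12 (stalk, chr11:120484517-120484636, plus strand): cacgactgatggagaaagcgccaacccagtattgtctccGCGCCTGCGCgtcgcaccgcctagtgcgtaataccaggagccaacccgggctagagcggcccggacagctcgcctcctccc
Mrpl45 (tunnel exit, chr11:97315596-97315715, plus strand): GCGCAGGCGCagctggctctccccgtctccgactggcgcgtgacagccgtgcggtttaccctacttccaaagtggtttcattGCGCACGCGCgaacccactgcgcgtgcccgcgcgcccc
Mrpl22 (tunnel wall, chr11:58171544-58171663, plus strand): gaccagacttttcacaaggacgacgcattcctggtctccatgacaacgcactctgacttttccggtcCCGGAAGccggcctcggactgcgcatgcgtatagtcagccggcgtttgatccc
Mrps12 (decoding centre, chr7:28741822-28741941, minus strand): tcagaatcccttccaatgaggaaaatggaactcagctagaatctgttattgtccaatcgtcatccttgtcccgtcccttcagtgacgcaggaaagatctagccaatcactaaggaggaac
Mrpl17, Mrpl12 and Mrpl45 thus share the NRF1 letters.

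Many of these genes also start back to back with a neighbour. An opposite-strand start lay within 1000 bases upstream for 23 of 67 genes (34.3%), against 1483 of 17491 protein-coding genes (8.48%). Mrpl46 and Mrps11 form such a pair, with starts 42 bases apart. Mrps12 faces Sars2, the mitochondrial seryl-tRNA synthetase, at 147 bases, and Mrpl43 faces Twnk, the mitochondrial DNA helicase, at 116 bases. In 21 pairs in which both genes were tested, the neighbours were higher in GFP-positive than in control cells in 8 and higher in GFP-negative than in control cells in 10, and gene and neighbour had differences of the same sign in 11 and 10 pairs. For Mrps12 and Sars2 the GFP-negative minus control differences were 0.87 and -0.75. Sars2 measured 5.11, 5.90 and 5.63 in GFP-negative against 5.87, 5.80 and 7.21 in control samples, so control 3 alone was high.

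The first comparison sets GFP-positive cells, which carry the marker of the dnMPL vector, against LSK cells of control mice. Of the 76 genes, 48 had a higher and 28 a lower mean in GFP-positive than in control cells (47.2% of all 12400 genes tested had a higher mean), and the median difference was 0.11, against -0.03 over all genes. None passed an adjusted p of 0.05 in limma (0% of all genes did), and 1 had an unadjusted p below 0.05 upward and 0 downward (background 3.3% and 3.19%). The large subunit had a median of 0.11 (31 of 49 higher) and the small subunit one of 0.11 (16 of 26 higher). The direction rested on 2 arrays: without control 3 the median was -0.14 with 26 of 76 genes higher, and without GFP-positive 3 it was -0.07 with 34 higher. With control 3 and GFP-positive 2 left out together it was 0.03, with 40 higher.

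**Figure D3:**
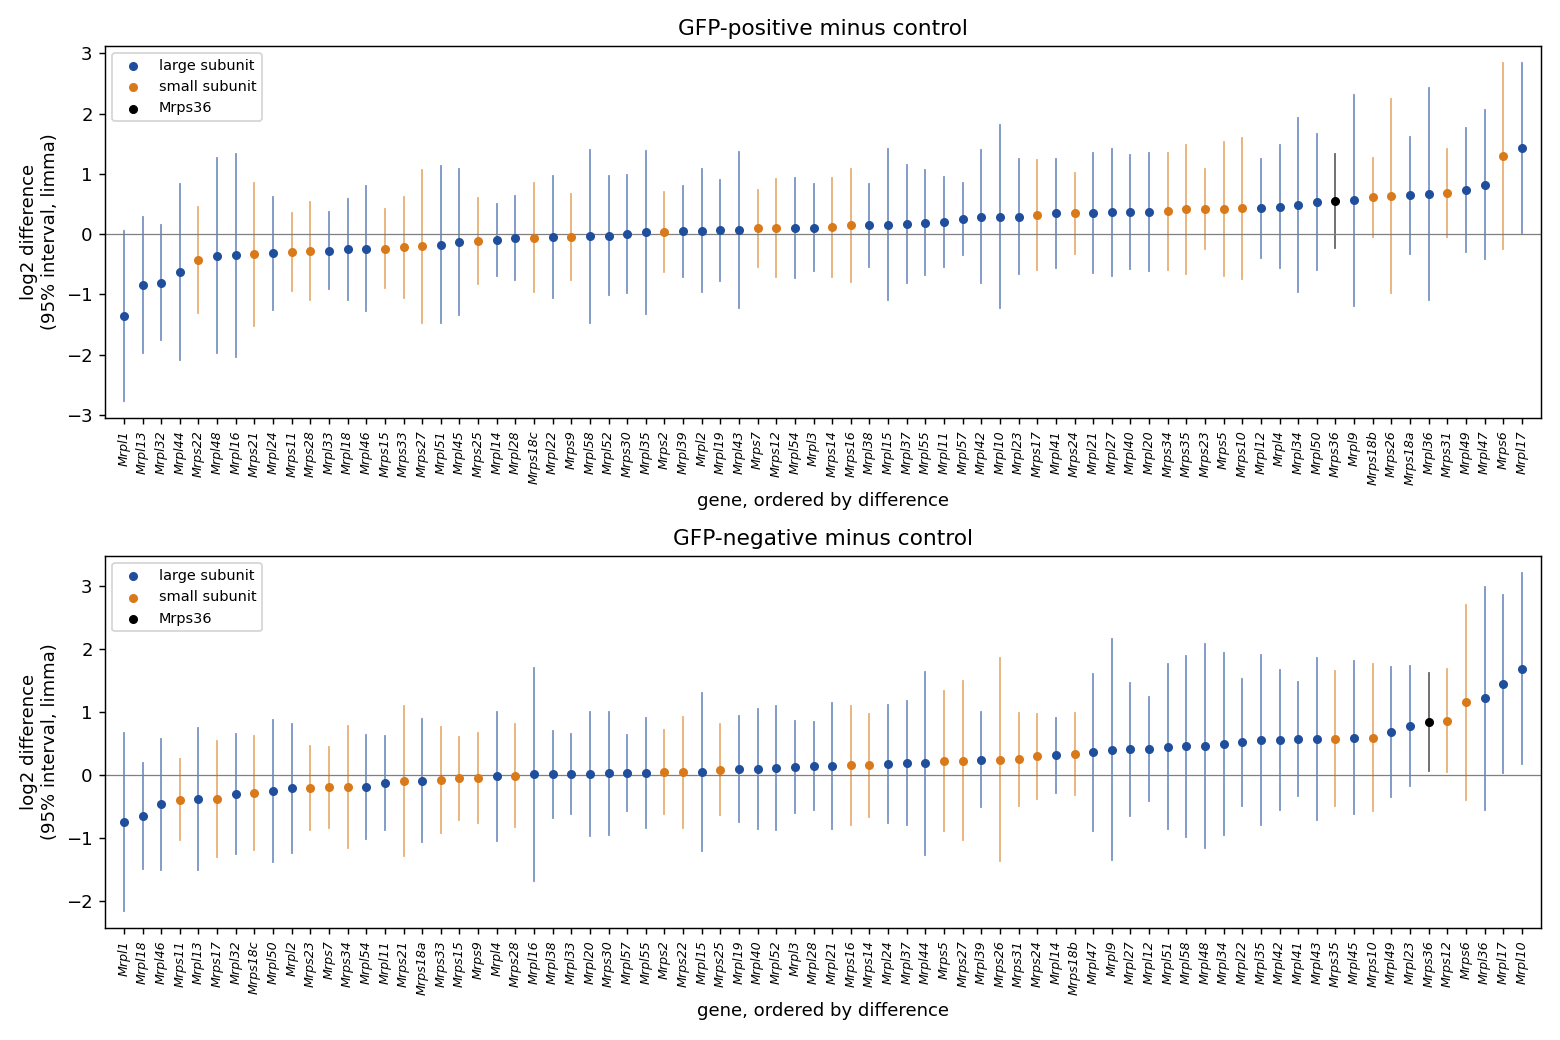
Difference in log2 RMA value (y axis) for each gene (x axis, ordered by difference), GFP-positive minus control above and GFP-negative minus control below; points are limma estimates and lines their 95% intervals, coloured by subunit. All intervals but 1 (Mrpl17, 1.43) in the upper panel and 4 (Mrpl10, Mrpl17, Mrps12 and Mrps36) in the lower panel span 0, and Mrpl10 lies at the upper end of the lower panel (1.69).

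Among large subunit genes Mrpl17, a protein with a bacterial counterpart, had the largest positive difference. It measured 8.94, 8.67 and 8.99 in GFP-positive, 9.02, 9.03 and 8.61 in GFP-negative and 8.28, 8.37 and 5.66 in control samples. Both dnMPL fractions lay above every control, and the third control lay far below the other two. GFP-positive minus control was 1.43 ± 0.63 (SE; 2.69-fold, limma adjusted p = 0.762), and 0.54 without control 3. Its other probe sets were below the level filter, and with the mean of all its probe sets the difference was 0.35.

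Mrpl1, which in bacteria forms the mobile stalk where spent tRNA leaves, had the largest negative difference. It measured 7.26, 5.06 and 7.08 in GFP-positive against 8.64, 7.58 and 7.26 in control samples, so that GFP-positive 2 was far below the rest and GFP-positive 1 met control 3. The difference was -1.36 ± 0.63 (SE; limma adjusted p = 0.772), but -0.65 without GFP-positive 2 and 0.19 on the brightest probe set of the plain kind, whose name ends in _at with no further letter. That plain probe set had a mean of 4.48, near the level filter (4.03). Mrpl32, whose maturation by the m-AAA protease is a step of ribosome assembly, measured 6.40, 6.24 and 7.81 in GFP-positive against 8.03, 7.58 and 7.26 in control samples. Its groups overlapped through GFP-positive 3, and the difference was -0.81 ± 0.42 (SE; limma adjusted p = 0.806), or -1.31 without that array and -0.52 without GFP-positive 2. Mrpl38, of the central protuberance, lay just above control on all GFP-positive arrays, with a difference of 0.15 ± 0.31 (SE). Its other probe sets gave -0.05 and 0.12.

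**Figure D4:**
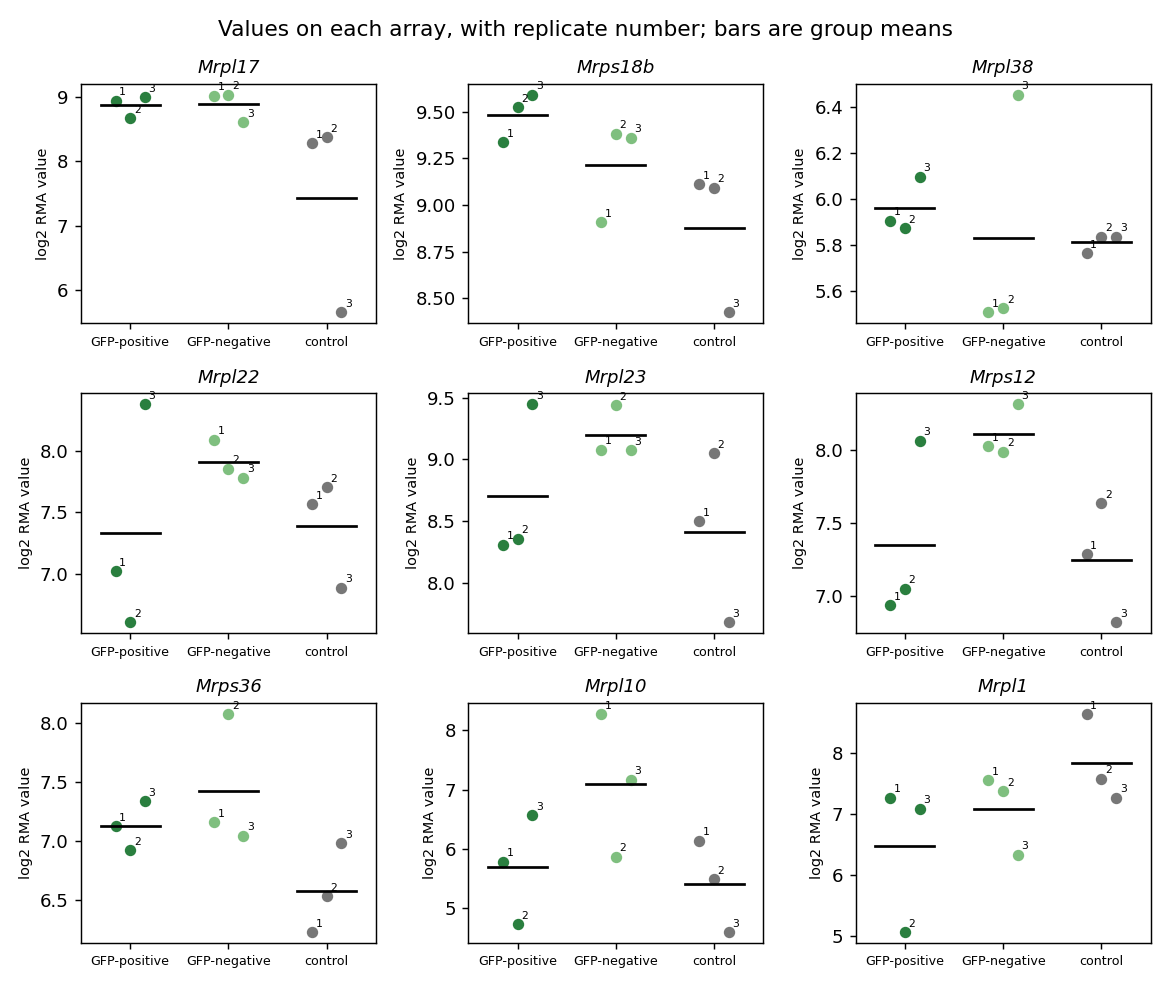
Log2 RMA values (y axis, scaled per gene) on each array for 9 genes, with the replicate number beside each point and bars at the group means; groups run GFP-positive, GFP-negative, control. Control 3 is the lowest value for Mrpl17 (5.66), Mrps18b, Mrpl23, Mrps12 and Mrpl10, and GFP-positive 3 stands above the other GFP-positive arrays for Mrpl22, Mrpl23 and Mrps12.

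In the small subunit Mrps18b, 1 of the 3 mammalian counterparts of a single bacterial protein, measured 9.34, 9.52 and 9.59 in GFP-positive against 9.11, 9.09 and 8.43 in control samples. These groups did not overlap, and the difference was 0.61 ± 0.29 (SE; limma adjusted p = 0.773), or 0.38 without control 3. Of the other counterparts, Mrps18a, which sits in the large subunit, differed by 0.65 ± 0.43 (SE; 0.22 without control 3) with overlapping groups, and Mrps18c by -0.06. Mrps31, a mitochondria-specific protein of the small subunit head, measured 7.93, 8.07 and 7.47 in GFP-positive against 6.74, 7.77 and 6.90 in control samples, a difference of 0.68 ± 0.33 (SE), while its second probe set gave -0.14. Mrps6 measured 7.85, 8.18 and 9.17 in GFP-positive against 6.68, 8.72 and 5.90 in control samples. Control 2 lay within the range of the GFP-positive cells and the other controls below it, and the difference was 1.30 ± 0.69 (SE). It came to 0.45 on the plain probe set, 0.70 without control 3 and 2.11 without control 2.

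Of the 76 genes, 3 had all GFP-positive values above all controls (Mrpl17, Mrps18b and Mrpl38; 3.95%, background 4.35%) and 0 had all below (background 4.26%). Differences of 1 or more were seen for 2 genes upward, Mrpl17 and Mrps6 (2.63%, against 4.75% of all genes), and for Mrpl1 downward (1.32%, against 4.34%). The 95% interval of a single gene's difference reached 0.97 to either side in the median (0.60 to 1.76 over the 76 genes). It is not adjusted for the number of genes, and at the median width it spans 0 for any difference below about 2-fold. The adjusted threshold is stricter. In GFP-positive against control cells 0 of 12400 genes passed it, although differences ran up to 4.98.

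GFP-negative cells, which shared the transplant with the dnMPL cells, were next set against control. Here 54 of the 76 genes had a higher and 22 a lower mean in GFP-negative cells (46.5% of all genes tested had a higher mean), with a median difference of 0.15, against -0.04 over all genes. None passed an adjusted p of 0.05 in limma (0% of all genes did), while 4 had an unadjusted p below 0.05 upward and 0 downward (background 2.83% and 2.74%). In the large subunit 38 of 49 genes were higher, with a median of 0.15, against 15 of 26 and 0.07 in the small subunit. Leaving out control 3 gave a median of -0.04 with 34 of 76 genes higher, close to the -0.05 over all genes in that fit. The medians of the large and small subunit were then -0.02 and -0.12.

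The stalk base protein Mrpl10, which anchors the factor-binding stalk of Mrpl12, measured 8.27, 5.87 and 7.17 in GFP-negative against 6.14, 5.49 and 4.60 in control samples. GFP-negative 2 lay below control 1, so the groups overlapped. The difference was 1.69 ± 0.68 (SE; 3.23-fold, limma adjusted p = 0.862), or 1.29 without control 3 and 1.11 without GFP-negative 1. Mrpl12 itself, which binds the mitochondrial RNA polymerase in human cells, measured 7.12, 6.44 and 6.76 in GFP-negative against 5.97, 6.51 and 6.58 in control samples, a difference of 0.42 ± 0.37 (SE). In GFP-positive cells it measured 6.92, 6.12 and 7.31, a difference of 0.43 from control, with groups that overlapped in both comparisons. Leaving out control 1 brought these differences to 0.23 in GFP-negative and 0.24 in GFP-positive cells, leaving out GFP-negative 1 brought the first to 0.24, and the second was 0.76 without GFP-positive 2 and 0.17 without GFP-positive 3.

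Mrps12, the protein of the decoding centre in which streptomycin resistance arises in bacteria, measured 8.03, 7.99 and 8.32 in GFP-negative against 7.29, 7.63 and 6.82 in control samples. All GFP-negative values lay above all controls, and the difference was 0.87 ± 0.36 (SE; 1.82-fold, limma adjusted p = 0.876), or 0.65 without control 3. Mrps36, the dehydrogenase subunit, measured 7.16, 8.07 and 7.05 in GFP-negative against 6.23, 6.53 and 6.98 in control samples, again without overlap. For this gene control 3 was the highest control, and the difference of 0.85 ± 0.35 (SE; limma adjusted p = 0.864) became 1.05 without it and 0.52 without GFP-negative 2. Mrpl17 differed by 1.45 ± 0.63 (SE; limma adjusted p = 0.876), against 0.56 without control 3; these values share the controls of the first comparison.

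Of the proteins that line the exit tunnel through which the new chain leaves, Mrpl22 and Mrpl23 had all GFP-negative values above all controls. Mrpl22 measured 8.10, 7.86 and 7.78 in GFP-negative against 7.57, 7.71 and 6.89 in control samples, and Mrpl23 measured 9.08, 9.44 and 9.07 against 8.50, 9.05 and 7.68. The differences were 0.52 ± 0.45 and 0.78 ± 0.43 (SE), and 0.27 and 0.42 without control 3; the gap between the groups was narrow for both genes. Mrpl24, Mrpl44 and Mrpl45, from the same face of the ribosome, differed by 0.18, 0.19 and 0.60 (0.01, 0.40 and -0.02 without control 3), and all had overlapping groups. Between GFP-positive and control cells Mrpl45 differed by -0.13.

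In total 5 of the 76 genes did not overlap upward (Mrpl17, Mrps12, Mrps36, Mrpl23 and Mrpl22; 6.58%, background 4.94%) and 0 downward (background 6.47%). Differences of 1 or more were seen upward for Mrpl10, Mrpl17, Mrps6 and Mrpl36 (5.26%, against 4.08% of all genes) and for 0 genes downward (2.77% of all genes). Mrpl36 measured 5.99, 7.47 and 6.85 in GFP-negative against 6.50, 6.67 and 3.48 in control samples, where control 3 alone was low; the difference was 1.22, or 0.18 without that array. Mrpl18, whose bacterial counterpart binds ribosomal RNA of the central protuberance, had the lowest p of the genes with a negative difference. It measured 8.28, 8.96 and 8.18 in GFP-negative against 9.81, 8.79 and 8.76 in control samples, and differed by -0.65 ± 0.37 (SE; limma adjusted p = 0.906), or -0.30 without control 1.

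The comparison of GFP-positive with GFP-negative cells sets marked against unmarked cells of dnMPL mice and uses no control array. Of the 76 genes 31 had a higher and 45 a lower mean in GFP-positive cells (51.8% of all genes tested had a higher mean), with a median of -0.03, against 0.01 over all genes. Calls numbered 0 at an adjusted p of 0.05 in limma (0% of all genes) and 0 at an unadjusted p of 0.05 in either direction (background 1.28% up and 1.27% down), and no gene had groups that did not overlap (background 3.96% and 2.44%). The largest difference was that of Mrpl10, at 5.78, 4.74 and 6.57 in GFP-positive against 8.27, 5.87 and 7.17 in GFP-negative samples. It came to -1.40 ± 0.68 (SE; limma adjusted p = 1.00), with an interval of -2.92 to 0.11, and to -0.92 without GFP-positive 2 and -0.82 without GFP-negative 1.

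Mrps12 measured 6.93, 7.05 and 8.06 in GFP-positive against 8.03, 7.99 and 8.32 in GFP-negative samples, so only GFP-positive 3 reached the GFP-negative range. The difference was -0.76 ± 0.36 (SE). Mrps23, Mrps17 and Mrps18a were the genes with positive differences among the 6 with the smallest p, at 0.61 ± 0.30, 0.69 ± 0.41 and 0.73 ± 0.43 (SE). The other probe sets of Mrps23 gave 1.42 and -0.60. Leaving out GFP-positive 2 brought Mrps17 to 0.39, and leaving out GFP-negative 3 brought Mrps18a to 0.48. Mrpl14, a protein at the interface of the subunits, differed by -0.42 ± 0.27 (SE). Without GFP-positive 3 the median of the 76 genes was -0.20, with 23 higher, and without GFP-positive 2 it was 0.04, with 45 higher. It was also above 0 without GFP-positive 1 (0.06, 41 higher) and without GFP-negative 2 (0.01, 38 higher).

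Genes whose loss causes mitochondrial disease in humans, as background, include Mrpl3, Mrpl12, Mrpl44, Mrps2, Mrps7, Mrps16, Mrps22 and Mrps34. Mrpl3 and Mrps2 differed by 0.11 and 0.03 between GFP-positive and control cells and by 0.14 and 0.05 between GFP-negative and control cells. Mrps22 measured 7.48, 7.22 and 7.96 in GFP-positive, 8.18, 7.94 and 8.00 in GFP-negative and 7.48, 7.62 and 8.86 in control samples, where control 3 was the highest of all arrays. Mrpl44 measured 8.79, 6.79 and 9.86 in GFP-positive against 9.20, 9.56 and 9.12 in GFP-negative samples, and both the lowest and the highest value fell within the GFP-positive group. Mrps7, Mrps16 and Mrps34 differed from control by 0.10, 0.15 and 0.38 in GFP-positive and by -0.19, 0.16 and -0.19 in GFP-negative cells. Mrps5, whose level is tied to lifespan in mouse strains, differed from control by 0.42 in GFP-positive and 0.22 in GFP-negative cells, or by -0.11 and -0.30 without control 3, and Mrps30 by -0.0046 in GFP-positive and 0.03 in GFP-negative cells. These small differences of Mrps30 rested on control 3. Its controls measured 7.52, 7.71 and 6.24, and controls 1 and 2 lay above every GFP-positive value. Leaving out control 3 also turned the sign of both differences for Mrpl3, Mrps2 and Mrps16.

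Spread within groups set the precision. The pooled SD within groups was 0.57 in the median of the 76 genes, against 0.49 over all genes tested. It was largest for Mrpl36 (1.16), Mrpl9 (1.15) and Mrpl16 (1.11) and smallest for Mrpl14 (0.22), Mrpl57 (0.23) and Mrpl33 (0.27). Mrpl33 measured 8.16, 8.10 and 8.85 in GFP-positive, 8.72, 8.78 and 8.48 in GFP-negative and 8.70, 8.49 and 8.74 in control samples, so that even control 3 lay with its group. RMA gave 19 of the 76 genes exactly the same deposited value, with no rounding, on 2 or more arrays, which can make the spread look too small. Such ties were not particular to these genes, as 19019 of all 45101 probe sets had them.

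Probe sets of the same gene often disagreed (plot of probe sets). The 76 genes had 156 probe sets, and 33 genes had more than 1 above the level filter. In GFP-positive against control cells the probe sets of 12 of these genes had differences of the same sign and those of 21 had not. The counts were 14 and 19 in GFP-negative against control cells and 15 and 18 in GFP-positive against GFP-negative cells. Mrpl48 gave -0.36, -0.30 and -1.76 on its probe sets, and the 5 probe sets of Mrps5 ran from -0.31 to 1.42. The extremes rested on single arrays. On the Mrpl48 probe set at -1.76, control 3 measured 8.37, against 5.30 and 4.04 on the other controls. On the Mrps5 probe set at 1.42, GFP-positive 2 measured 10.35, against 6.81 and 6.89 on the other GFP-positive arrays. Mrpl13 gave -0.84, 0.75 and -1.06. Of the probe sets that represent the genes, 34 had a suffix that marks sharing of probes between transcripts or sequences (_a_at, _s_at or _x_at) and 42 were plain.

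**Figure D5:**
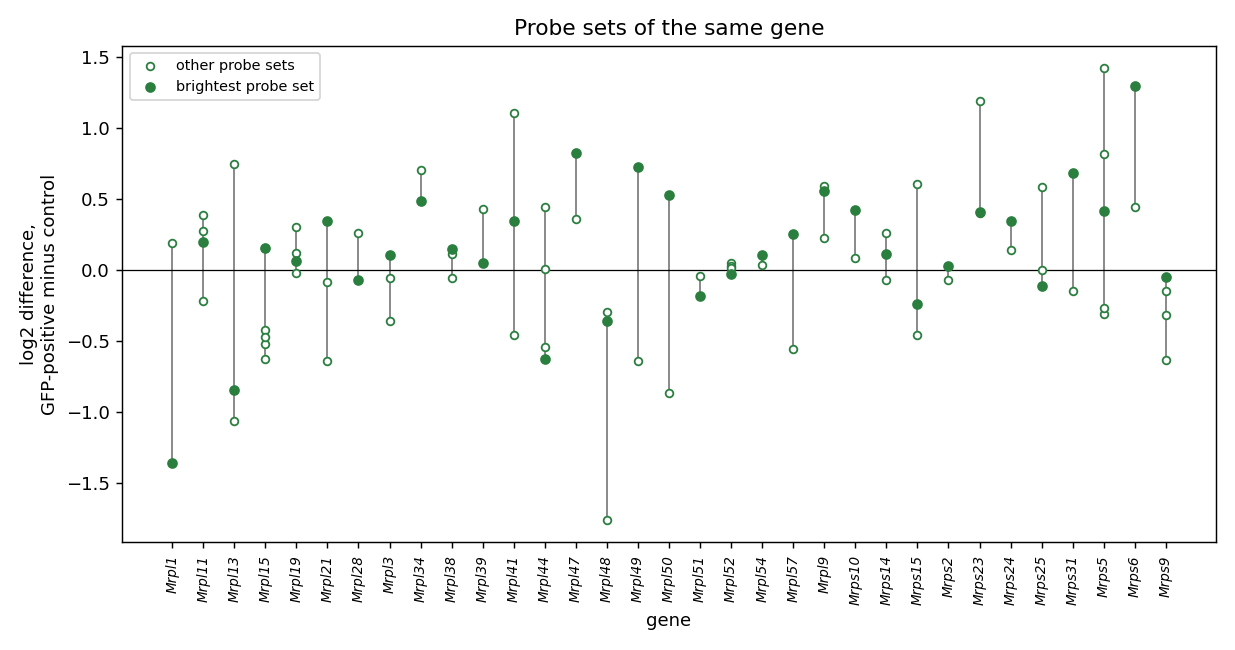
GFP-positive minus control difference (log2, y axis) on every probe set above the level filter for the 33 genes with more than 1 (x axis); filled points are the brightest probe set, open points the others, and lines join probe sets of a gene. The points of 21 genes fall on both sides of 0, Mrpl1 (-1.36 and 0.19) and Mrps5 (-0.31 to 1.42) among them.

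The rest of the mitochondrial translation system likewise had 0 genes past the adjusted threshold in any comparison, in lists chosen with earlier results of these data known. Of 4 ribosomal proteins with other names, 1 was higher in GFP-positive than in control cells, 2 were higher in GFP-negative than in control cells and 0 were higher in GFP-positive than in GFP-negative cells. Dap3, the GTP-binding protein of the small subunit, measured 8.08, 6.81 and 8.60 in GFP-positive against 10.4, 8.59 and 7.80 in control samples, which overlapped; the difference was -1.10, or -0.36 without control 1. Among 10 translation factors 6 were higher in GFP-positive and 7 in GFP-negative than in control cells. Mtfmt, which formylates the initiator tRNA, measured 5.14, 4.08 and 5.76 in GFP-positive, 5.54, 5.42 and 5.22 in GFP-negative and 6.39, 6.58 and 7.74 in control samples. Neither fraction overlapped control, and the differences were -1.91 in GFP-positive (limma adjusted p = 0.488) and -1.51 in GFP-negative cells (limma adjusted p = 0.763), or -1.07 and -0.74 with the mean of its probe sets.

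Among 19 mitochondrial aminoacyl-tRNA synthetases and amidotransferase subunits, 10 were higher in GFP-positive and 11 in GFP-negative than in control cells. Hars2, the histidyl-tRNA synthetase, measured 6.00, 6.32 and 6.13 in GFP-positive against 4.58, 4.73 and 4.36 in control samples, a difference of 1.59 (limma adjusted p = 0.403). Its plain probe set gave 0.04. Qrsl1 measured 3.43, 4.91 and 8.05 in GFP-positive, 8.92, 7.44 and 7.63 in GFP-negative and 6.20, 6.40 and 2.76 in control samples. The GFP-negative values lay above every control, and control 3 was the lowest of all arrays. The difference was 2.88 between GFP-negative and control cells (limma adjusted p = 0.876) and -2.535 between GFP-positive and GFP-negative cells. Of 19 assembly factors 12 and 13 were higher in GFP-positive and in GFP-negative than in control cells. The helicase Dhx30 measured 7.22, 6.21 and 7.68 in GFP-positive, 8.27, 8.06 and 7.89 in GFP-negative and 8.15, 8.06 and 8.05 in control samples, so the GFP-positive cells lay below both other groups. Its differences were -1.05 from control and -1.04 from GFP-negative cells (limma adjusted p = 0.691 and 1.00), or -0.64 and -0.63 without GFP-positive 2, the lowest array.

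Of 6 genes of mitochondrial transcription and RNA stability, 4 were higher in GFP-positive and 5 in GFP-negative than in control cells. Polrmt, the mitochondrial RNA polymerase, measured 7.82, 7.42 and 6.85 in GFP-positive, 7.10, 6.12 and 5.50 in GFP-negative and 4.85, 5.79 and 4.43 in control samples. GFP-positive values lay above every control, while GFP-negative 3 fell below control 2. The GFP-positive minus control difference was 2.34 (limma adjusted p = 0.364), or 1.44 with the mean of its probe sets. Lrpprc, which stabilises mitochondrial mRNAs, differed by 1.03 between GFP-negative and control cells (limma adjusted p = 0.845). Of 8 nuclear regulators 5 were higher in each fraction than in control cells. The list includes Nrf1, Gabpa and Yy1, factors of the NRF1, ETS and YY1 motifs searched in the promoters. Nrf1 differed from control by -0.22 in GFP-positive and by -0.54 in GFP-negative cells (0.09 without GFP-negative 1). In the same order, Gabpa differed by -0.11 and -0.42 and Yy1 by 0.15 and 0.28. For Gabpa too GFP-negative 1 was the lowest of all arrays, at 8.05, and the other GFP-negative values lay within the control range. Esrra, an orphan receptor that drives mitochondrial genes, differed by 1.45 (0.83 with the mean of its probe sets) and 0.40.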

How the data were processed

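LSK RNA of 9 pools was amplified, biotin-labelled (Nugen kits, per the labels' protocols) and hybridised, 1 Affymetrix array per pool. Values were deposited on the log2 scale and come from RMA, according to the submitters' processing notes (no version); RMA subtracts background, quantile-normalizes arrays and summarises probe sets by median polish. Among 45101 probe sets, 34945 had 1 annotated gene, 932 several and 9160 none. The brightest probe set stood for a gene, and 12400 of 18193 genes, all 76 described here included, had a mean above the 40th percentile (4.03) and were tested. The fit used limma 3.58.1 (lmFit and eBayes, R 4.3.3) on 9 arrays in 3 groups, with Benjamini-Hochberg adjustment over 12400 genes at 0.05. The number of arrays limits the precision. Members and lists were chosen with earlier results of these data known. Named genes were, per comparison, the 6 with the smallest p and those without overlap. The 3 with the largest and smallest spread and a preset list were added, of which Mrpl11 is not described. Genes of each other list were drawn from the 2 with the smallest p per comparison, and not all of these are described. Mrpl13, Mrpl48, Gabpa, Nrf1 and Yy1 were named after their values were seen, as were the genes far from their group on 1 array. Alternatives changed the filter, probe set, normalization, variance prior, array weights, arrays fitted and replicate block, and left out arrays. Promoters come from RefSeq (GRCm38.p6). Figures used matplotlib 3.10.9 (Python 3.11.15).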

Additional observations from a re-analysis of the deposited data

How the results depend on the processing

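Under each of 20 settings, the main one included, 0 genes passed the adjusted threshold in each comparison, whether among the 76 or among all genes tested; unadjusted p below 0.05 held for 612 to 1368 genes in GFP-positive against control, 511 to 1133 in GFP-negative against control and 203 to 984 in GFP-positive against GFP-negative cells (805, 691 and 316 in the main fit). The lowest adjusted p of any of the 76 genes over those settings was 0.321, 0.334 and 0.591, in this order of comparisons, which holds below. Leaving out 1 array at a time, the median of the 76 genes ran from -0.14 to 0.29, from -0.04 to 0.27 and from -0.20 to 0.06. With array weights it was -0.06, 0.07 and -0.12, and with both control 3 and GFP-positive 2 left out 0.03, -0.04 and 0.04. Of the 76 genes, 16, 27 and 28 kept the sign of their difference under all of the settings. Deviations of same-numbered samples correlated at -0.29 to -0.01 (GFP-positive with control), -0.03 to 0.07 (GFP-negative with control) and -0.07 to 0.10 (GFP-positive with GFP-negative). With 3 arrays a group, these values cannot tell whether same-numbered samples share mice. The replicate block left the medians at 0.11, 0.15 and -0.03, with 0 calls and 811, 624 and 308 genes at an unadjusted p below 0.05.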
